A study of Mus musculus with 2 samples.

Results

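The Gimap genes, a family of lymphocyte GTPases, were followed in 2 RNA sequencing libraries of mouse hematopoietic stem cells (HSCs). Members were the genes whose symbol is Gimap followed by digits alone, which gave 8 of the 23209 genes used: Gimap1, Gimap3, Gimap4, Gimap5, Gimap6, Gimap7, Gimap8 and Gimap9. The libraries came from Satb1-Tomato-positive (SATB1-positive) and Satb1-Tomato-negative (SATB1-negative) cells, with 1 library per group. Both fractions carried the Tomato reporter of Satb1, which encodes a chromatin organizer of lymphoid cells, and both were CD150-positive and Flt3-negative cells of the LSK population (Kit-positive, Sca-1-positive cells without lineage markers). The sources used here give no strain, age, treatment or number of animals behind a library. The family was chosen with earlier results of these libraries known, so all its values are a description, and with 1 library per group there is no replicate check and no p-value.

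Gimap proteins, or GTPases of immunity-associated proteins, share a GTP-binding domain, and several of them sit on intracellular membranes. The family is best known from T cells, where several members set the survival of resting lymphocytes. Their genes lie side by side in mammals. In mice, loss of Gimap1 depletes mature T and B cells, and loss of Gimap5 depletes T and NK cells and also impairs blood stem cells.

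The family split between the libraries. Gimap3, Gimap4 and Gimap7 were about 3 to 4 times higher in the SATB1-positive library, Gimap8 was moderately higher, Gimap1 and Gimap9 were nearly level, and Gimap5 and Gimap6 were lower. Levels are given in FPKM, sequenced fragments per kilobase of transcript, scaled to library size, so that levels of different genes can be compared. Ratios are log2((SATB1-positive FPKM + 1)/(SATB1-negative FPKM + 1)), which understates differences of genes near or below 1 FPKM, and folds are plain ratios of FPKM. A gene passed the rule of size with a log2 ratio of 1 or more, or of -1 or less, if it also reached 5 FPKM in the higher of its libraries. Of the 9308 genes that reached 5 FPKM, 1.31% passed as higher and 0.688% as lower. Of the 8 Gimap genes, all of which had at least 5 FPKM in 1 library, 3 passed as higher and 0 as lower. The members were chosen on this contrast, so nothing is read from that share.

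Gimap3, a mouse gene closely related to Gimap5, had 26.7 FPKM in the SATB1-positive library, against 6.99 FPKM in the SATB1-negative library. The fold was 3.82 (3.44 to 4.25) and the log2 ratio 1.79, the highest of the family. About 1386 and 474 fragments lay behind these 2 levels. The intervals are 95% intervals for counting error alone, from fragment numbers estimated from the FPKM, and can be too narrow because copies made by PCR count as separate fragments; variation among animals or sorts is not in them. Gimap4, which speeds the death of mouse T cells once apoptosis has begun, had 29.4 FPKM in the SATB1-positive library, against 8.90 FPKM in the SATB1-negative library (3.31-fold, 2.77 to 3.96; log2 ratio 1.62). Gimap7, whose human protein hydrolyses GTP as a dimer, was the least abundant member in both libraries. It had 8.68 FPKM in the SATB1-positive and 2.92 FPKM in the SATB1-negative library (2.98-fold, 2.37 to 3.78; log2 ratio 1.31). Gimap7 stood nearest the threshold on its inner side and Gimap8, with a log2 ratio of 0.66, nearest on its outer side. With a pseudocount of 5 in place of 1, the log2 ratio of Gimap7 was 0.79 and it no longer passed, which left 2 members past the rule as higher and 0 as lower, beside 0.731% and 0.387% of all genes. With a 4-fold threshold 0 members passed in either direction, beside 0.258% of genes as higher and 0.269% as lower, and with a pseudocount of 0.1 the 3 members passed as higher and 0 as lower, beside 1.53% and 0.913%.

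**Figure D1:**
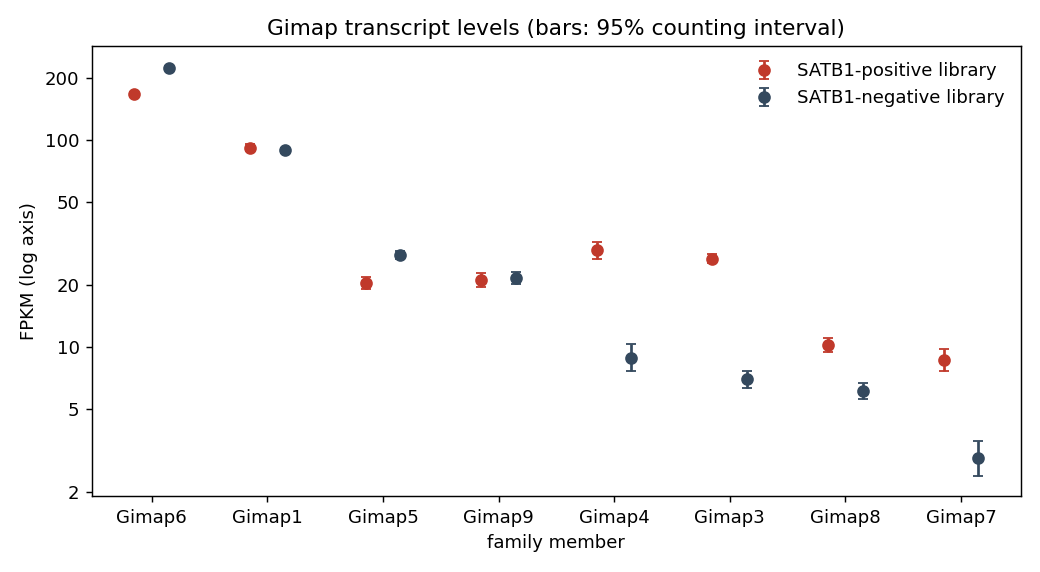
FPKM (log axis) of the 8 Gimap genes in the SATB1-positive (red, left of each pair) and SATB1-negative library (dark, right), 1 library each, in the order of their SATB1-negative levels; bars are 95% counting intervals. Gimap3, Gimap4 and Gimap7 lie clearly higher in the SATB1-positive library (26.7, 29.4 and 8.68 FPKM), while Gimap6, the most abundant, lies lower there (166 FPKM).

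Promoters are shown for the 3 members that passed the rule of size and for Gimap6, the most abundant member, as 300-base RefSeq windows of the GRCm38.p6 assembly (the mm10 build) from 250 bases before to 50 bases after the annotated start, 5′ to 3′ on the gene's strand. Capitals mark matches, on either strand, to the Runx motif TGTGGT and the Ets motif AGGAAG, which bind transcription factor families active in lymphoid and stem cells.
Gimap3 promoter, chr6:48770802-48771101, minus strand: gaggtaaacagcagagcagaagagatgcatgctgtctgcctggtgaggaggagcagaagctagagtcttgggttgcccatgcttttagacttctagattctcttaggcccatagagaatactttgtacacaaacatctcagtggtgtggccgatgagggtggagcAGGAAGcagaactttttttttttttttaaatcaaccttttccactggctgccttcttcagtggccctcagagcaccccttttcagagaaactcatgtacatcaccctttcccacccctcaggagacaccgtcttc
Gimap4 promoter, chr6:48684328-48684627, plus strand: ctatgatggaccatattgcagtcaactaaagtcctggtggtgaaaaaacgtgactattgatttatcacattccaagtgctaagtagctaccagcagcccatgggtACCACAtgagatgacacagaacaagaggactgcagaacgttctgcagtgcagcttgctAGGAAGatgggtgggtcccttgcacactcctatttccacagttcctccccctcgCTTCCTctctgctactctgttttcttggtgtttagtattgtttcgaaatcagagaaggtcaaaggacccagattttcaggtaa
Gimap7 promoter, chr6:48718371-48718670, plus strand: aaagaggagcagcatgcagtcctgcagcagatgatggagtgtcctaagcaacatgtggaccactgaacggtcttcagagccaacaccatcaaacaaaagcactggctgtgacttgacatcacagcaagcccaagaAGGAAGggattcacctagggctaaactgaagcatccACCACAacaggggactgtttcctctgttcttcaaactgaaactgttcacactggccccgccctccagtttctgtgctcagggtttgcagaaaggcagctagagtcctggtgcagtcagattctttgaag
Gimap6 promoter, chr6:48708195-48708494, minus strand: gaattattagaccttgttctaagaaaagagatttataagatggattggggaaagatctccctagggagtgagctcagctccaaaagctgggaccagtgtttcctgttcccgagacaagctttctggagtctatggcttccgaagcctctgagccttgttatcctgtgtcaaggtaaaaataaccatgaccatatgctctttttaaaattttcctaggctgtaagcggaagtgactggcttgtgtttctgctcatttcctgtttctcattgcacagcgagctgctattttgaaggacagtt

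All 8 members had a window in the RefSeq table, and the counts below use the first listed start of each. Gimap8 has a second listed start, whose window was searched as well and held an Ets and a Klf match. Runx matches stood in 3 windows (Gimap4, Gimap7 and Gimap1), and 14.4% of 15677 promoters of genes in the files held one. Among the first listed starts, Ets matches stood in 6 windows, all but those of Gimap6 and Gimap8, against 34.1% of promoters. A Tcf and Lef motif, CTTTGA, occurred in Gimap4 and Gimap7 (15.0% of promoters), and a Klf motif, GGGTGG, in Gimap9, Gimap4, Gimap5 and Gimap3 (33.6%). The Foxo motif GTAAACA (2.97%) and the RBPJ motif GTGGGAA (6.38%) each occurred in the Gimap3 window alone, where the RBPJ match overlaps a Klf match, and the Gata motif AGATAA (9.81%) in none. All motifs were searched on both strands. No motif searched was in the windows of exactly the 3 higher members: Gimap1 also held Runx and Ets matches, and Gimap3 held no Runx match. A match describes letters in the window and does not show binding.

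The most abundant members did not share the difference. Gimap6, which binds the autophagy protein Gabarapl2, had 166 FPKM in the SATB1-positive library, against 222 FPKM in the SATB1-negative library, 1.34-fold lower (1.30 to 1.38; log2 ratio -0.42). Its level was above that of 98.0% of all genes in the SATB1-positive and 98.6% in the SATB1-negative library, so the gene ranked among the abundant transcripts of both. Gimap1 had 92.0 FPKM in the SATB1-positive and 89.2 FPKM in the SATB1-negative library, and its fold of 1.03 had an interval (0.984 to 1.08) that included 1. Gimap5 had 20.5 FPKM in the SATB1-positive and 27.8 FPKM in the SATB1-negative library, 1.36-fold lower (1.26 to 1.47; log2 ratio -0.43). Gimap9 was level, at 21.2 FPKM in the SATB1-positive and 21.5 FPKM in the SATB1-negative library (fold 0.985, 0.889 to 1.09). Gimap8, whose long coding sequence holds several GTP-binding domains in tandem, had 10.3 FPKM in the SATB1-positive and 6.14 FPKM in the SATB1-negative library (1.67-fold, 1.49 to 1.88). None of these 5 genes passed the rule of size.

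The order of the members changed accordingly. In the SATB1-positive library it ran Gimap6, Gimap1, Gimap4, Gimap3, Gimap9, Gimap5, Gimap8 and Gimap7, and in the SATB1-negative library Gimap6, Gimap1, Gimap5, Gimap9, Gimap4, Gimap3, Gimap8 and Gimap7. Gimap4 and Gimap3 thus stood above Gimap9 and Gimap5 in the SATB1-positive and below them in the SATB1-negative library. The counting intervals of neighbours in the order overlapped for Gimap4 and Gimap3, Gimap9 and Gimap5, and Gimap8 and Gimap7 in the SATB1-positive library. In the SATB1-negative library they overlapped for Gimap4 and Gimap3 and for Gimap3 and Gimap8. The Gimap4 intervals rest on a transcript of 771 bases, and another RefSeq-linked transcript of the gene has 1804 bases. The longer one would give more fragments and narrower intervals, so the overlaps of Gimap4 can depend on the length used.

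The summed level of the family was nearly equal, at 375 FPKM in the SATB1-positive and 386 FPKM in the SATB1-negative library (fold 0.972, approximate interval 0.951 to 0.994). Gimap6 made up 44.4% of this sum in the SATB1-positive and 57.6% in the SATB1-negative library. Gimap1 made up 24.5% in the SATB1-positive and 23.1% in the SATB1-negative library. Gimap3, Gimap4 and Gimap7 together made up 17.3% in the SATB1-positive and 4.87% in the SATB1-negative library, at 64.8 and 18.8 FPKM. Without Gimap6, the sum was 209 FPKM in the SATB1-positive and 163 FPKM in the SATB1-negative library, 1.28-fold higher. The median log2 ratio over the 8 members was 0.35, with 5 above and 3 below 0, and over all 11873 genes that reached 1 FPKM it was -0.0059.

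**Figure D2:**
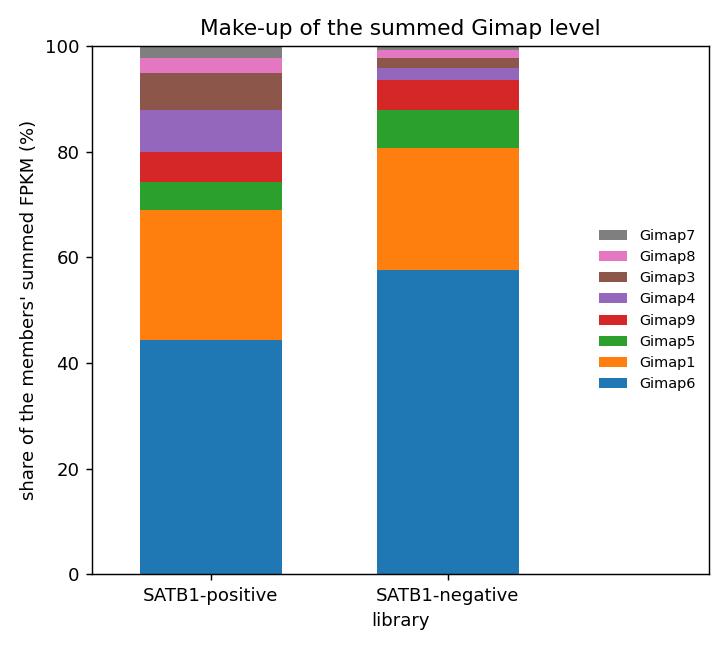
Share (%) of each Gimap gene in the members' summed FPKM in the SATB1-positive (left bar) and SATB1-negative library (right bar), 1 library each. Gimap6 fills 44.4% of the SATB1-positive and 57.6% of the SATB1-negative bar, and the segments of Gimap3, Gimap4 and Gimap7 are larger in the SATB1-positive bar.

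On the chromosome the higher members did not lie together. The cluster spans 124 kb of chromosome 6, from 48647186 to 48770851 of mm10, with no other RefSeq protein-coding gene inside. From the proximal end the order is Gimap8, Gimap9, Gimap4, Gimap6, Gimap7, Gimap1, Gimap5 and Gimap3. Gimap6 and Gimap3 lie on the minus strand and the other 6 on the plus strand. Gimap4 (48684578 to 48692062) was followed by Gimap6 (48701583 to 48708244), and Gimap7 (48718621 to 48724636) by Gimap1 (48739047 to 48743795), so that each of these 2 higher genes had a neighbour that did not pass. Gimap5 (48746197 to 48754200) and Gimap3 (48764464 to 48770851), at the distal end, had log2 ratios of opposite sign, -0.43 and 1.79.

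The measured genes nearest the cluster did not pass the rule of size. Among all 11873 genes that reached 1 FPKM, 122 passed as higher and 64 as lower. For so few flanking genes a count of 0 is near that share. Of the 6 nearest protein-coding genes of the files on each side, 12 in all, 6 had at least 1 FPKM in either library, and their median log2 ratio was -0.18. On the side of Gimap3, Tmem176b and Tmem176a, a pair of membrane protein genes of myeloid cells, had 269 and 82.8 FPKM in the SATB1-positive library, against 317 and 105 FPKM in the SATB1-negative library. On the side of Gimap8, the zinc finger gene Repin1 had 24.0 FPKM in the SATB1-positive and 31.8 FPKM in the SATB1-negative library. Zfp775 had 2.37 and 2.69 FPKM and Gm5111 had 8.07 and 8.44 FPKM in the SATB1-positive and SATB1-negative libraries. Lrrc61, at 5.56 FPKM in the SATB1-positive and 3.82 FPKM in the SATB1-negative library, was the single measured flanking gene with a ratio above 0 (log2 ratio 0.44).

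**Figure D3:**
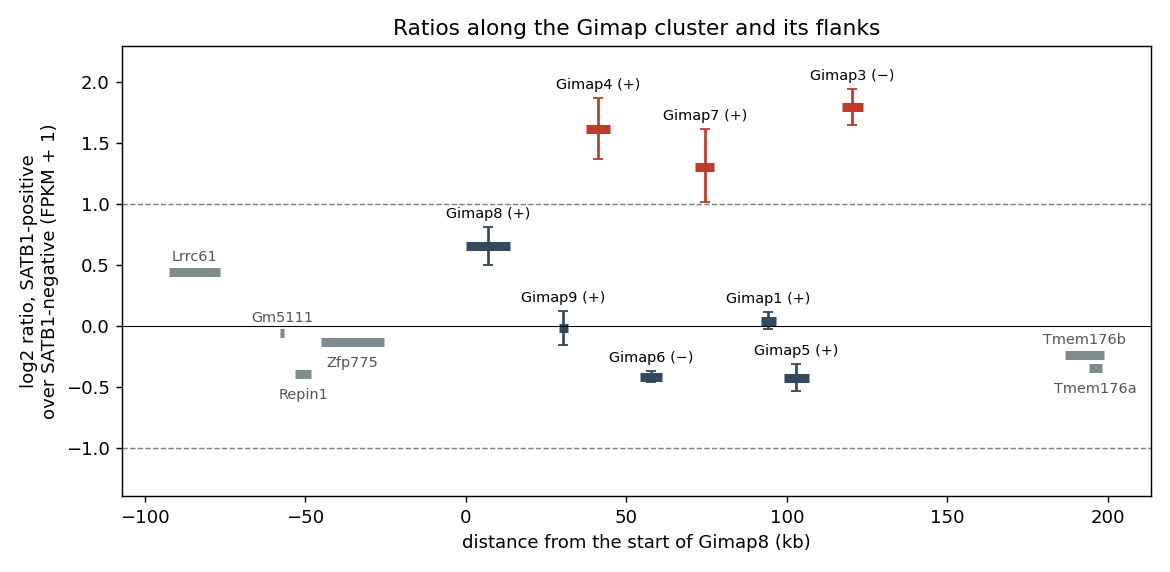
Log2 ratio of SATB1-positive over SATB1-negative FPKM + 1 (vertical axis) against distance in kb from the start of Gimap8 (horizontal axis). Thick lines are genes (red, Gimap genes past the rule of size; dark, other Gimap genes; grey, flanking genes with at least 1 FPKM), thin bars are 95% counting intervals, dashed lines are the threshold, and the signs give the strand; the 3 red genes, at 1.31 to 1.79, are separated by genes near or below 0.

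Sequence likeness and overlaps limit how exactly reads can be assigned to some members. Over the 21 pairs that leave out Gimap8, whose coding part is far longer, the coding sequences of Gimap3 and Gimap5 were 88.9% identical over aligned bases, and the next pair, Gimap1 and Gimap6, 65.6% (median 58.8%). Of the 50-base words of the Gimap3 transcript, 9.06% also occurred in another member, and of the Gimap5 transcript 9.98%. Gimap4, Gimap6, Gimap8 and Gimap9 shared 0 such words with transcripts of any other gene. The split of shared reads between Gimap3 and Gimap5 is therefore uncertain. Their sum was 47.2 FPKM in the SATB1-positive and 34.8 FPKM in the SATB1-negative library (1.36-fold), and the ratio of Gimap3 to Gimap5 within a library was 1.31 in the SATB1-positive and 0.251 in the SATB1-negative library. An annotated read-through gene, Gm28053, overlaps 81 exon bases of Gimap7, 198 of Gimap1 and 153 of Gimap5 on the same strand. The antisense gene Gimap1os overlaps 201 bases of Gimap1, and the sources used here do not give the strand setting of the counting.

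The genes closest in level to the most abundant and to the most different member were found among 17412 protein-coding genes by distance on the log2(FPKM + 1) scale over the 2 libraries. Closest to Gimap6 were the nucleotidase gene Nt5c3 (167 FPKM in the SATB1-positive and 214 FPKM in the SATB1-negative library), the interferon-induced membrane protein gene Ifitm1 (174 and 219 FPKM) and Angpt1, a ligand of the Tie2 receptor (176 and 220 FPKM). Closest to Gimap3 were Zfp91 (25.1 and 6.65 FPKM) and Rab44 (30.8 and 7.90 FPKM), in the same order of libraries. With only 2 libraries such a likeness describes levels and no shared pattern.

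Satb1, the gene behind the sort, had 8.26 FPKM in the SATB1-positive and 2.37 FPKM in the SATB1-negative library (3.48-fold, 3.02 to 4.02). HSC markers were present in both: all 14 listed genes had at least 1 FPKM and all 14 had a ratio below 0. Their summed level was 774 FPKM in the SATB1-positive and 1093 FPKM in the SATB1-negative library. None passed the rule of size, but Hoxb5 had a log2 ratio of -1.19 and missed it only because it stayed under 5 FPKM. It had 1.08 FPKM in the SATB1-positive and 3.74 FPKM in the SATB1-negative library. A list of 8 genes held Satb1, genes of the gate and other surface markers such as Cd48, which is not in the gate described above. Satb1 and Cd48 passed, both as higher, and the list's median log2 ratio was 0.38. Among all 11873 genes that reached 1 FPKM, 122 passed as higher and 64 as lower. With a pseudocount of 5 the log2 ratio of Satb1 was 0.85, and 1 gene of the list, Cd48, passed. Cd48, which most HSCs lack on their surface and many progenitors carry, had 145 FPKM in the SATB1-positive and 47.6 FPKM in the SATB1-negative library.

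Part of the markers of mature lymphocytes were higher together with the 3 Gimap genes. Of 22 listed T cell genes 20 were measured, meaning that they reached 1 FPKM in a library. Of these, 8 passed in the higher direction and 0 in the lower, beside 122 and 64 of all 11873 measured genes. The gene lists were chosen with earlier results known, so their counts are a description. The T cell list had 19 ratios above 0 and a median log2 ratio of 1.22. With a pseudocount of 5, 2 of these genes passed. Their summed level was 182 FPKM in the SATB1-positive and 100.2 FPKM in the SATB1-negative library, and none of the 22 was at 0 in both. Lat, named after its values were seen, made the largest part of that sum and had the list's only ratio below 0. It had 50.9 FPKM in the SATB1-positive and 58.8 FPKM in the SATB1-negative library (log2 ratio -0.21). For 7 of the 20, only the SATB1-positive value reached 1 FPKM, which fixed the sign of their ratios. Cd3e, a T cell receptor component, had 15.4 FPKM in the SATB1-positive and 2.76 FPKM in the SATB1-negative library (5.59-fold, 4.57 to 6.86). Cd3g had 13.2 FPKM in the SATB1-positive and 2.95 FPKM in the SATB1-negative library, and the T cell coreceptor gene Cd8b1 5.96 and 1.14 FPKM. The difference between the libraries was 19.7 FPKM for Gimap3, 20.5 FPKM for Gimap4 and 5.76 FPKM for Gimap7. Over the T cell list it ran from -7.95 FPKM for Lat to 12.6 FPKM for Cd3e, with 10.3 FPKM for Cd3g and 0.51 FPKM for Thy1. In bulk samples, more cells of a type and more RNA per cell cannot be told apart, and the part of these markers in the Gimap differences was not tested.

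Of 10 measured NK cell genes of 13 listed, 4 passed as higher and 0 as lower, beside 122 and 64 of all 11873 measured genes. The summed level of the list was 386 FPKM in the SATB1-positive and 168 FPKM in the SATB1-negative library. For 6 of the 10, Xcl1 among them, only the SATB1-positive value reached 1 FPKM, and their ratios could only be above 0. Nkg7, named after its values were seen, made most of that sum, at 313 FPKM in the SATB1-positive and 152 FPKM in the SATB1-negative library. Il2rb, a shared chain of the interleukin-2 and interleukin-15 receptors, had 13.6 FPKM in the SATB1-positive and 1.69 FPKM in the SATB1-negative library. The chemokine genes Ccl5 and Xcl1 had 36.7 and 5.27 FPKM in the SATB1-positive library, against 8.88 and 0.869 FPKM in the SATB1-negative library. Among 7 measured innate lymphoid cell genes of 9 listed, Cxcr6, a chemokine receptor gene, alone passed as higher (10.6 FPKM in the SATB1-positive and 1.19 FPKM in the SATB1-negative library). In TPM, where all values are larger and the same minimum of 5 admits lower levels, 4 of them passed. Of the 7, 2 reached 1 FPKM only in the SATB1-positive cells. The summed level was 43.3 FPKM in the SATB1-positive and 26.5 FPKM in the SATB1-negative library, and Il13 was at 0 in both. Only 1 of 11 B cell genes was measured, Cd79b, at 33.9 FPKM in the SATB1-positive and 34.3 FPKM in the SATB1-negative library.

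Of 7 measured basophil and mast cell genes of 10 listed, 6 passed as higher and 0 as lower, beside 122 and 64 of all 11873 measured genes. The summed level of the list was 593 FPKM in the SATB1-positive and 167 FPKM in the SATB1-negative library. Prss34, named after its values were seen, made most of that sum, at 360 FPKM in the SATB1-positive and 107 FPKM in the SATB1-negative library. Mcpt8, a basophil protease gene, had 103 FPKM in the SATB1-positive and 24.8 FPKM in the SATB1-negative library, and Cpa3 and Fcer1a also passed (log2 ratios 1.91 and 1.96). Endothelial genes, of a cell type that also transcribes Gimap genes, had 0 of 8 measured past the rule, 5 below 0, and a summed level of 210.0 FPKM in the SATB1-positive and 283 FPKM in the SATB1-negative library. Egfl7, the gene given for this list, had 62.2 FPKM in the SATB1-positive and 61.1 FPKM in the SATB1-negative library. The endothelial cadherin gene Cdh5, named after its values were seen, had 0.00989 and 0.0837 FPKM and did not count as measured. The part of endothelial cells in the Gimap levels was not tested. Neutrophil genes had 0 of 8 past the rule (sum 612 FPKM in the SATB1-positive and 735 FPKM in the SATB1-negative library), monocyte and macrophage genes 0 of 6 (457 and 425 FPKM), plasmacytoid dendritic cell genes 0 of 5 (94.8 and 80.4 FPKM) and erythroid genes 1 of 7 (433 and 280.2 FPKM), as sums in the same order of libraries. The erythroid gene was Hbb-b1, a globin gene with 7.01 FPKM in the SATB1-positive and 1.15 FPKM in the SATB1-negative library. With a pseudocount of 5 it did not pass (log2 ratio 0.96). Of the 7 erythroid ratios, 4 were above and 3 below 0. The globin gene Hba-a1 and Car1, both named after their values were seen, differed in direction. Hba-a1 had 7.47 FPKM in the SATB1-positive and 11.9 FPKM in the SATB1-negative library. Car1, which made most of the erythroid sum, had 350 and 204 FPKM. In TPM, where the same minimum of 5 admits lower levels, 1 plasmacytoid dendritic cell gene passed as higher.

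No measured gene of other immune GTPase families or of the Gimap partners passed the rule of size. Among all 11873 measured genes, 122 passed as higher and 64 as lower. Counts of 0 in lists of this size are near that share. Of 17 measured genes of the Gbp, Irg and Mx families, interferon-induced GTPases of immunity, 0 passed and 13 had a ratio below 0, with a median log2 ratio of -0.24 and a range from -0.80 to 0.26. Ifi47, the most abundant of them, had 83.6 FPKM in the SATB1-positive and 95.2 FPKM in the SATB1-negative library. Of 9 partners of Gimap proteins, which are Bcl-2 family members, Gabarapl2 and Gsk3b, 0 passed, and the median was -0.05. The survival gene Mcl1 had 299 FPKM in the SATB1-positive and 353 FPKM in the SATB1-negative library. Bcl2, Bax and Gabarapl2, named after their values were seen, had 33.8, 57.9 and 86.8 FPKM in the SATB1-positive library, against 35.1, 44.6 and 88.4 FPKM in the SATB1-negative library.

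Of 15 genes of lymphocyte quiescence and survival, 2 passed, both as higher, beside 122 as higher and 64 as lower of 11873 measured genes. The list's median log2 ratio was 0.17, with 12 ratios above 0 and 3 below 0. Its summed level was 946 FPKM in the SATB1-positive and 934 FPKM in the SATB1-negative library. For 2 of the 15, Il7r among them, only the SATB1-positive value reached 1 FPKM, and for 1 only the SATB1-negative value. Il7r, the interleukin-7 receptor that keeps resting T cells alive, had 7.64 FPKM in the SATB1-positive and 0.727 FPKM in the SATB1-negative library (10.5-fold, 8.35 to 13.3). The list of septins, filament-forming GTPases, gave no values, since 0 of its 13 symbols stood in the files in readable form.

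**Figure D4:**
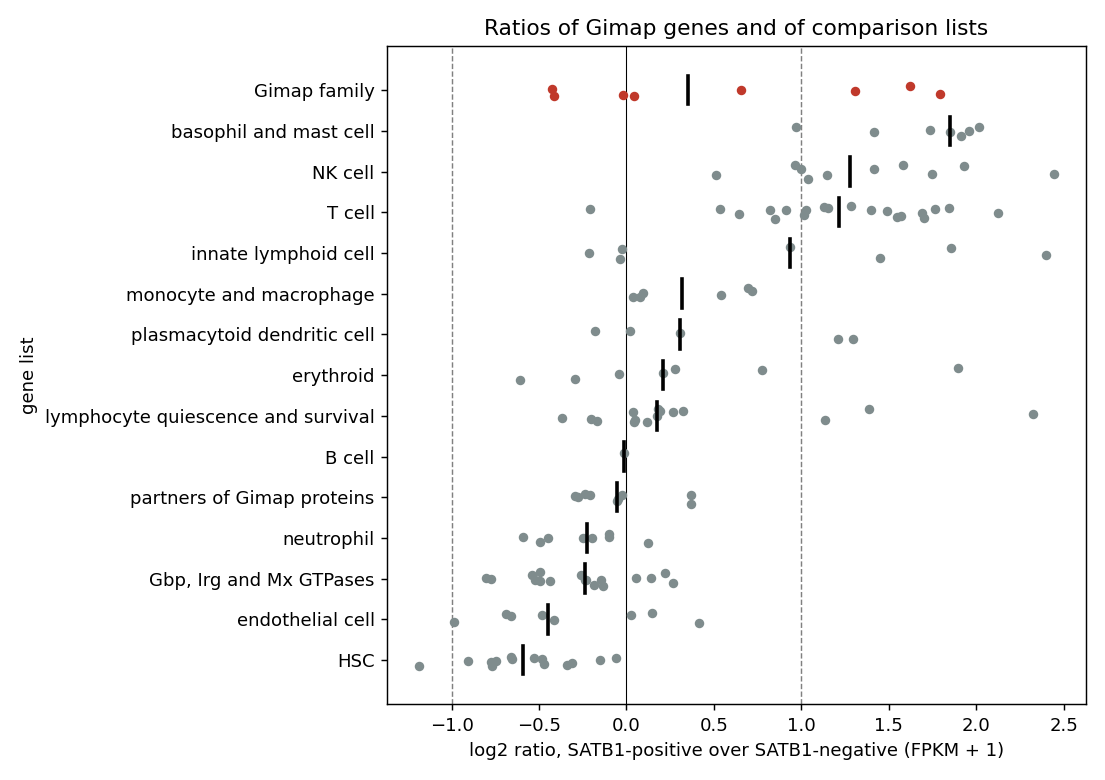
Log2 ratio of SATB1-positive over SATB1-negative FPKM + 1 (horizontal axis) of each gene with at least 1 FPKM in either library, by gene list (vertical axis); black bars are list medians and dashed lines the threshold, and vertical scatter within a list has no meaning. The 8 Gimap genes (red) spread from -0.43 to 1.79. List medians are 1.85 for basophil and mast cell genes, 1.28 for NK cell genes, 1.22 for T cell genes and -0.59 for HSC genes.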

How the data were processed

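Per the labels' protocols, RNA came from a miRNeasy extraction and stranded libraries from the SMARTer chemistry of Clontech. Each deposited file holds, per the file headers, an FPKM value for every gene symbol. Cufflinks 2.2.1, TopHat2 2.0.13, SAMtools 0.1.19 and Bowtie2 2.2.3 are named with build mm10 in the submitters' processing notes; the sources used here give neither their settings nor the annotation. Each file held 23235 rows, of which 26 had a date or serial number as symbol and were left out, with 0.172% of the summed FPKM in the SATB1-positive and 0.161% in the SATB1-negative library.

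Counts were not among the values, so depth was inferred from the steps of low FPKM of genes with 1 exon and 1 transcript in GENCODE M21. Depths of 26720000 fragments (SATB1-positive) and 34920000 fragments (SATB1-negative), with 205 bases taken off each length, gave whole fragments, with a tolerance of 0.05, for 58.7% of 235 values (SATB1-positive) and 55.6% of 225 values (SATB1-negative); a random depth gives 10%, but the depths were searched for this share, so fragment numbers are approximate; each used the shortest RefSeq-linked transcript. Fold intervals of single genes are exact (Clopper-Pearson) on the split of fragments, and level intervals exact Poisson. The interval of the summed fold is approximate. It is the interval of the members' pooled fragments, 13693 in the SATB1-positive and 18653 in the SATB1-negative library, rescaled to the fold of the FPKM sums.

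Members, lists and alternatives were chosen with earlier results of these data known. Named were all members, up to 3 genes per list past the rule of size or else the most abundant, flanking genes with at least 1 FPKM, and the 3 genes nearest to 2 members; some genes that this rule names are not reported here. Alternatives were pseudocounts, scalings, filters and a 4-fold threshold. The steps were tested on simulated data. Python 3.11.15, pandas 2.3.3, scipy 1.17.1 and Biopython 1.88 were used.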

Additional observations from a re-analysis of the deposited data

How the results depend on the processing

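Scaling by the median ratio, to the same sum (TPM) or by the upper quartile left all 24 member ratios within their counting intervals, and no member changed sign under any pseudocount or scaling. With a 4-fold threshold 0 members passed as higher, in place of 3. Without Gimap6 the fold of the summed level was 1.28. The list genes past the rule as higher numbered 15 with a pseudocount of 5 and 35 in TPM, in place of 24. In TPM 12 T cell, 6 NK cell, 4 innate lymphoid and 1 plasmacytoid dendritic cell genes passed. All values are larger in TPM, which sums to a fixed total above the summed FPKM of 496872 (SATB1-positive) and 497898 (SATB1-negative). The minimum of 5 and the pseudocount of 1 thus weigh less there, and the share of all genes past the rule in TPM is not given. With a pseudocount of 5 the log2 ratios of Gimap3, Gimap4, Gimap7 and Gimap8 were 1.40, 1.31, 0.79 and 0.45. The list genes past it as lower numbered 0, and 1 with a pseudocount of 0.1 (Esam, an endothelial gene) or in TPM (Hoxb5, an HSC gene that stays under 5 in FPKM); these 2 genes were named after their values were seen. Alternatives for the flanking genes were chosen after seeing the data; their median log2 ratio lay between -0.21 and -0.15 under them. No paired analysis was possible because each group has 1 library, and for the same reason no replicate could be left out. Counting error limits Gimap7 most, with about 247 fragments in the SATB1-positive and 108 in the SATB1-negative library.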
